A study of Mus musculus with 4 samples.

Results

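Amphiregulin (Areg), epiregulin (Ereg), heparin-binding EGF-like growth factor (Hbegf) and transforming growth factor alpha (Tgfa) are secreted ligands of the epidermal growth factor (EGF) receptor, and Egfr encodes that receptor. These 5 genes were taken by symbol from 32286 counted features, and each symbol occurred once. They were followed across the cell types of mouse skeletal muscle in 4 single-cell RNA libraries of a Duchenne muscular dystrophy (DMD) model, 1 library per group. The groups were vehicle or LNP-CRISPR, a lipid nanoparticle (LNP) that delivers the CRISPR gene-cutting system, each prepared as a bulk cell suspension or with a satellite cell isolation kit. Both treatments were thus studied in diseased muscle, and no healthy muscle was analysed here. The strain, Dmd mutation, age, number of animals pooled, dose and time after dosing are not given in the sources used here.

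EGF family ligands are made as membrane-bound precursors. Proteases of the ADAM family, above all Adam17 with its iRhom partners (Rhbdf1 and Rhbdf2), cut them loose, and the freed ligand pairs Egfr molecules with each other or with the related receptors Erbb2, Erbb3 and Erbb4. Areg is a low-affinity Egfr ligand known from regulatory T cells and type 2 innate lymphoid cells in tissue repair, and it can act on muscle satellite cells, the stem cells of muscle. Ereg binds Egfr and Erbb4, Hbegf binds the same receptors and heparan sulphate, and Tgfa binds Egfr with high affinity.

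The genes Areg, Ereg, Tgfa and Egfr lie on GRCm38 at chr5:91139599-91148432 (Areg, plus strand), chr5:91074622-91093646 (Ereg, plus strand), chr6:86195223-86275719 (Tgfa, plus strand) and chr11:16752203-16918158 (Egfr, plus strand). Ereg and Areg are neighbours, with 45952 bases between them. The 250 bases before the Areg start (RefSeq, GRCm38.p6, chr5:91139349-91139598, plus strand) are shown because Areg had the lowest LNP-CRISPR over vehicle ratio of any measured class among the 5 genes, and because genes of the prostaglandin and cAMP pathway are given beside it below. Capitals mark the palindromic cAMP response element TGACGTCA, the letters bound by CREB proteins, which begins 61 bases before the start.
Areg upstream: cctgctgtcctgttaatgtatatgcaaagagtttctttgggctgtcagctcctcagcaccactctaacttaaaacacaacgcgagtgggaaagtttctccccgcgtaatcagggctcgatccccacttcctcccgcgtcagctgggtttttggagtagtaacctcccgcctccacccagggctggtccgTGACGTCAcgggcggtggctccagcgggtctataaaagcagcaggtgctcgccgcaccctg
On either strand, TGACGTCA was found in 508 of 32851 RefSeq windows of the same 250 bases (1.55%). Of the 3 genes with a window searched, Areg held it and Tgfa and Egfr did not. The AP-1 motif TGANTCA, searched on both strands, was in none of the 3 windows and in 6.75% of all windows. These are matches of letters and were not read as sites in use.

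Cells were grouped by expression and named from marker genes, and "-like" marks that names rest on those markers alone. Bulk kept 1199 vehicle and 1149 LNP-CRISPR cells, and the kit 1404 and 1899, with medians from 8627 to 22270 UMIs per cell. Each RNA molecule counted carries its own barcode, a UMI (unique molecular identifier). Any 2 libraries shared between 0 and 3 barcodes. Bulk libraries held mostly fibro-adipogenic progenitor (FAP)-like cells, the matrix-making stromal cells of muscle (664 vehicle, 465 LNP-CRISPR), with macrophage or monocyte-like, tenocyte-like (tendon) and dendritic-like cells. Kit libraries held satellite-like (452 and 518), glial-like (252 and 428), fibre-like and pericyte or smooth muscle-like cells. Cluster 11 was left without a name: 82 vehicle kit and 89 LNP-CRISPR kit dividing cells led by Cenpf, Cenpe and Mki67, with Myod1 and Cdh15 as their enriched satellite markers. FAP-like cluster 23 (15 and 35 bulk cells) also carried neutrophil markers, and it held no Areg or Ereg UMI.

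Levels are the summed UMIs of a class per 1000000 of its UMIs outside the mitochondrial genes (CPM). Brackets hold 95% intervals from the exact Poisson method. Where 2 values stand together, the vehicle value comes first. Counts come from transcript 3′ ends and are not divided by length, so levels are compared between cell types and not between genes. Over all kept cells the counts were 1682 (Areg), 2267 (Ereg), 12532 (Hbegf), 127 (Tgfa) and 13306 UMIs (Egfr). With 1 library per group no test could be made. Intervals cover counting error only, and no difference can be assigned to treatment rather than to animals or preparations.

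**Figure D1:**
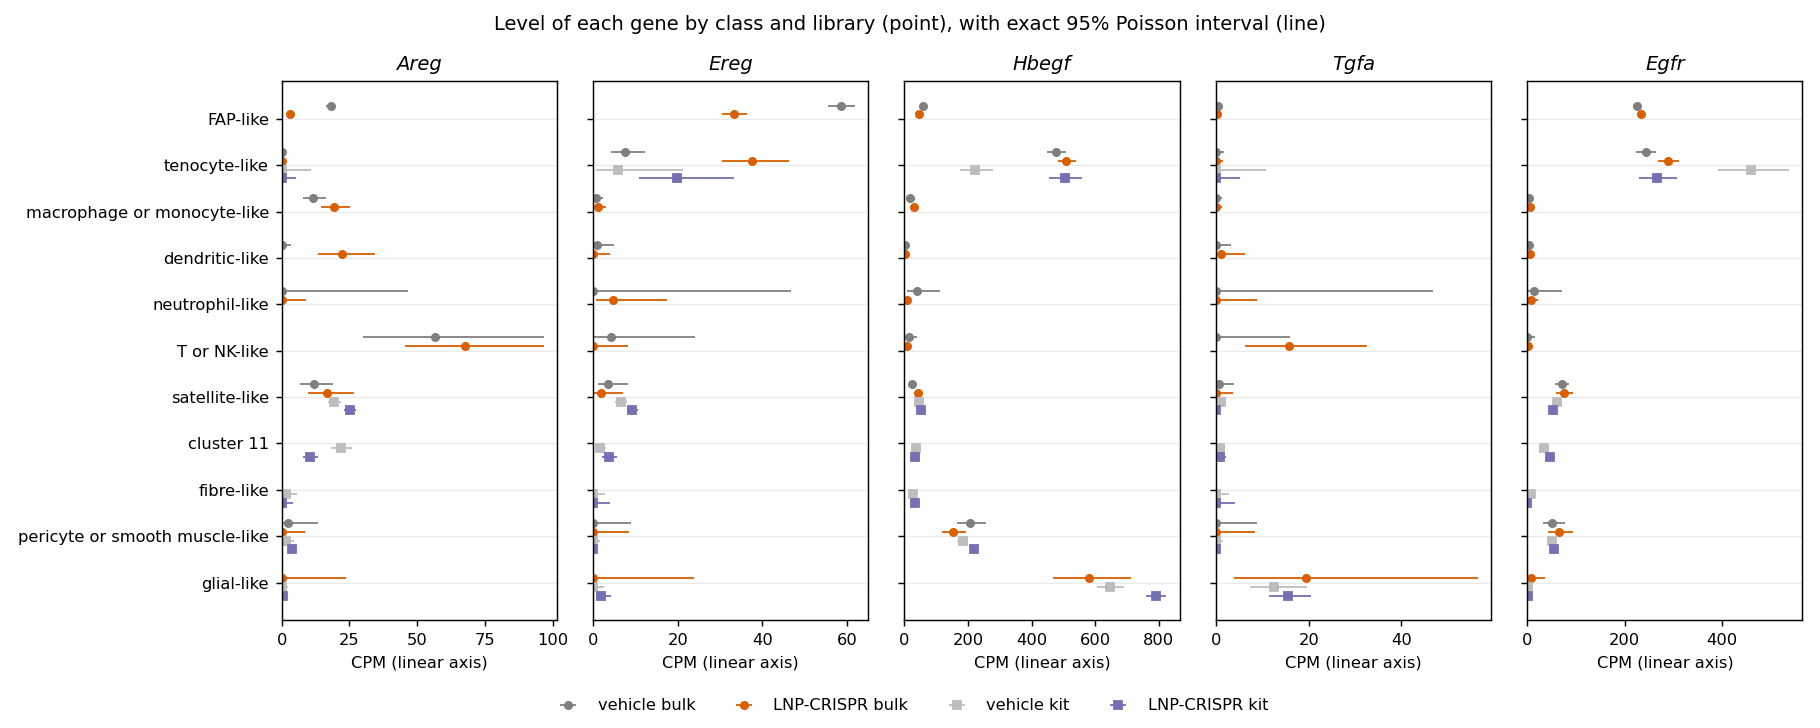
Each panel shows 1 gene, with CPM on a linear horizontal axis, the classes as rows, 1 point for each library with at least 20 cells of that class and a line for the exact 95% Poisson interval. Areg is highest in T or NK-like cells of bulk, Ereg in FAP-like and tenocyte-like cells, Hbegf in glial-like and tenocyte-like cells, and Egfr in tenocyte-like and FAP-like cells.

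Areg RNA was spread over stromal, immune and muscle stem cells. It lay in few of the FAP-like and macrophage or monocyte-like cells, and in 20.6% and 23.7% of satellite-like kit cells. By level it was highest in the T or NK-like class of both bulk libraries, at 56.4 CPM (30.04–96.5) with vehicle and 67.6 CPM (45.6–96.5) with LNP-CRISPR. These levels rest on 13 UMIs in 4 of 33 cells and 30 UMIs in 7 of 50 cells. Their intervals lay apart from those of the next class in each library. By amount, most Areg in vehicle bulk came from FAP-like cells, which held 408 of 494 UMIs (82.6%). The FAP-like level was 18.2 CPM (16.5–20.1) with vehicle, from 38 of 664 cells, and 3.20 CPM (2.36–4.25) with LNP-CRISPR, from 11 of 465 cells. The median FAP-like cell had none. As under 10% of FAP-like cells had an Areg UMI, the richest 10% necessarily held 100% of the class's Areg in both libraries.

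Most T or NK-like cells with Areg carried genes known from type 2 innate lymphoid cells, and few or none carried T cell receptor or natural killer genes. Over both bulk libraries 11 T or NK-like cells had an Areg UMI. Of these, 10 had Gata3, the transcription factor of type 2 lymphocytes, 10 had Il1rl1, the receptor for interleukin 33, and 11 had Rora. Il5, the eosinophil growth factor, was in 9 of the 11 and in 2 of the other 72 cells of the class. Il13, also of the type 2 innate lymphoid list, was in 1 of the 11 and in 0 of the 72. Il2ra, a subunit of the interleukin 2 receptor that regulatory T cells also carry, was in 11 of 11 and in 12 of 72. Other genes of the regulatory T list were Tnfrsf18, in 10 of 11 against 42 of 72, and Ikzf2, in 6 of 11 against 26 of 72. The libraries differed for Ikzf2, which was in 0 of 4 vehicle and 6 of 7 LNP-CRISPR cells with Areg. Ctla4 of that list went the other way, in 0 of 11 against 18 of 72. Foxp3, which defines regulatory T cells, was in 0 of 11 against 4 of 72, too few to tell the groups apart. The T cell receptor gene Cd3e was in 1 of 11 against 34 of 72, and the natural killer gene Ncr1 in 0 of 11 against 18 of 72. In all, 18 genes were looked at in these cells, and 11 cells are few. When clustered more finely (resolution 2.0), or without the genes of the ERBB list, all 11 cells fell in an unnamed cluster led by Gata3, Icos and Il2ra. Named cell by cell from marker scores, 6 of the 11 were T or NK and 5 were mast. With the finer clustering, or without the list genes, the T or NK-like class ranked 5 for Areg in both bulk libraries.

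Among muscle cells, Areg was found in satellite-like cells and cluster 11. The satellite-like level was 19.5 CPM (17.2–21.96; 93 of 452 cells) in vehicle kit and 25.1 CPM (22.99–27.4; 123 of 518 cells) in LNP-CRISPR kit. Bulk satellite-like cells gave 11.9 CPM (6.95–19.1) and 16.6 CPM (9.68–26.6), from 35 and 30 cells. Cluster 11 held 21.9 CPM (18.4–26.0) with vehicle and 10.3 CPM (7.71–13.5) with LNP-CRISPR. Together, satellite-like cells and cluster 11 held nearly all Areg UMIs of the kit, with 262 and 133 of 408 in vehicle and 520 and 53 of 607 in LNP-CRISPR. Unnamed clusters 6 and 18, of very low depth (medians from 684.5 to 1065 UMIs), gave the highest kit values, 28.3 CPM (10.4–61.6) in vehicle cluster 6 and 29.7 CPM (3.60–107) in LNP-CRISPR cluster 18, from 6 and 2 UMIs, with intervals that overlap the satellite-like ones. Fibre-like cells, which carry the transcripts of mature muscle, had 2 UMIs in 277 vehicle and 0 in 285 LNP-CRISPR barcodes, at medians of 1664 and 1623 UMIs.

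Several classes of the same droplet runs lacked Areg and others held little of it, and these classes are the measure of free RNA for this gene. Tenocyte-like cells had 0 Areg UMIs in 81 and 109 bulk cells and in 24 and 38 kit cells, which allows shares of up to 3.70%, 2.75%, 12.5% and 7.89%. Their median depth was 26307 UMIs in vehicle bulk, near the 29076.5 of FAP-like cells, of which 5.72% had Areg. Glial-like kit cells had it in 0 of 252 and 2 of 428 cells (0.467%), and neutrophil-like cells in 0 of 33 and 0 of 155. Among macrophage or monocyte-like cells, 7 of 202 vehicle and 5 of 178 LNP-CRISPR cells held Areg, at 11.6 CPM (8.06–16.3) and 19.4 CPM (14.6–25.2). Those shares, 3.47% and 2.81%, are near the limits for tenocyte-like cells, but single cells held up to 18 and 43 UMIs. Dendritic-like cells had 0 UMIs in 58 vehicle cells and 20 UMIs in 2 of 61 LNP-CRISPR cells, 17 of them in 1 cell.

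Ereg was mostly in stromal cells in bulk and mostly in satellite-like cells in the kit. FAP-like cells held 1313 of 1338 Ereg UMIs in vehicle bulk and 499 of 598 in LNP-CRISPR bulk. Their level was 58.6 CPM (55.5–61.9) with vehicle and 33.3 CPM (30.4–36.4) with LNP-CRISPR, while about the same share of cells had a UMI, 87 of 664 (13.1%) and 64 of 465 (13.8%). Tenocyte-like cells held 7.55 CPM (4.32–12.3) and 37.6 CPM (30.3–46.2) in bulk. In the kit they held 5.86 CPM (0.710–21.2) and 19.8 CPM (10.8–33.2). In LNP-CRISPR bulk 1 tenocyte-like cell held 75 of the 92 UMIs, and the interval of this class overlapped that of FAP-like cells. Satellite-like kit cells, at 6.54 CPM (5.24–8.05) and 9.22 CPM (7.96–10.6), held 87.1% of 101 and 83.0% of 230 Ereg UMIs of their libraries. In vehicle kit theirs was the highest value, with an interval that overlaps the tenocyte-like one, and with LNP-CRISPR the tenocyte-like interval lay above theirs. Immune cells were near 0: macrophage or monocyte-like cells had Ereg in 2 of 202 and 3 of 178 cells, and T or NK-like cells in 1 of 33 and 0 of 50.

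Hbegf (GRCm38, chr18:36504927-36515805, minus strand) was highest in glial-like and tenocyte-like cells. Glial-like cells, which ensheathe nerves, held 648 CPM (607–691; 174 of 252 cells) in vehicle kit, 793 CPM (762–825; 309 of 428 cells) in LNP-CRISPR kit and 580 CPM (466–713; 16 of 22 cells) in LNP-CRISPR bulk. Tenocyte-like cells held 477 CPM (448–507) and 510 CPM (482–539) in bulk, and 223 CPM (176–279) and 505 CPM (454–560) in the kit. The vehicle kit tenocyte-like value stood below the other 3, and it came from 24 cells. Pericyte or smooth muscle-like cells, the cells of vessel walls, followed tenocyte-like cells in 4 of 4 libraries among named classes, at 207 CPM (165–255) and 152 CPM (118–193) in bulk and 183 CPM (166–201) and 218 CPM (205–230) in kit. FAP-like cells held 57.6 and 45.2 CPM and satellite-like kit cells 47.2 and 52.3 CPM. Dendritic-like cells lay lowest among bulk classes with over 50 cells, at 2.69 and 2.22 CPM. Thinned to 1000 UMIs per cell, 32.1% and 38.4% of glial-like kit cells kept an Hbegf UMI, against 9.52% and 29.7% of tenocyte-like and 10.6% and 14.5% of pericyte or smooth muscle-like kit cells. In bulk, 23.5% and 24.3% of tenocyte-like, 26.9% and 8% of pericyte or smooth muscle-like and 5.74% and 4.89% of FAP-like cells kept one. At this depth tenocyte-like cells thus did not lead pericyte or smooth muscle-like cells in the vehicle libraries, where 1 of these classes had under 30 cells.

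Tgfa was near the limit of detection outside glial-like cells. They held 18 UMIs in vehicle kit (12.4 CPM, 7.37–19.6; 12 of 252 cells) and 48 in LNP-CRISPR kit (15.5 CPM, 11.4–20.5; 38 of 428 cells). Of the glial-like cells with Tgfa, 11 of 12 and 34 of 38 also had Hbegf, against 67.9% and 70.5% of those without, and cells with Tgfa were deeper (medians of 10219 and 10501 UMIs, against 6410 and 7364.5). In LNP-CRISPR bulk, T or NK-like cells held 7 UMIs in 4 of 50 cells (15.8 CPM, 6.34–32.5), and vehicle T or NK-like cells 0 in 33. Satellite-like kit cells had 15 UMIs in 12 of 452 vehicle cells and 1 UMI in 518 LNP-CRISPR cells, both together under the 30 UMIs set for a ratio. No Tgfa UMI was found in tenocyte-like, macrophage or monocyte-like, pericyte or smooth muscle-like, neutrophil-like or fibre-like cells of libraries with at least 20 of them.

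By level, Egfr, the receptor, was highest in connective tissue cells. By amount, satellite-like cells held 62.0% and 58.6% of the Egfr UMIs of the kit libraries. Tenocyte-like cells held 243 CPM (223–265; 77 of 81 cells) and 288 CPM (268–311; 93 of 109) in bulk. In the kit they held 460 CPM (391–538; 20 of 24) and 266 CPM (229–307; 32 of 38). FAP-like cells followed at 225 CPM (219–231; 623 of 664) and 233 CPM (225–241; 417 of 465), and in vehicle bulk their interval overlapped the tenocyte-like one. Unlike Areg and Ereg, which had fewer UMIs in these cells, Egfr was spread over most FAP-like cells, and the richest 10% of them held 25.1% and 27.6% of it. Satellite-like cells held 70.8 and 74.3 CPM in bulk and 61.3 and 53.6 CPM in kit, with a UMI in 62.8% and 68.7% of kit cells. Pericyte or smooth muscle-like cells were close to them, at 50.5 and 64.5 CPM in bulk and 50.7 and 55.3 CPM in kit. Glial-like kit cells, high in Hbegf and Tgfa, held 2.07 and 2.25 CPM of Egfr, from 3 of 252 and 7 of 428 cells. Macrophage or monocyte-like (2.40 and 4.94 CPM), dendritic-like (2.69 and 4.43 CPM) and T or NK-like cells (0 and 2.25 CPM) were as low. A UMI of Egfr was in 3.47% and 6.74% of macrophage or monocyte-like cells (medians of 14160.5 and 15286 UMIs), beside 0 of 33 and 1 of 50 T or NK-like cells (6727 and 8300.5 UMIs). The part of free RNA in these shares was not tested.

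Within FAP-like cells, most UMIs of Areg and of Ereg lay in cluster 0. Cluster 0, led by Cxcl5, Ptx3, Pi16, Ccl2 and Il33, held 384 Areg UMIs (94.1% of the class) at 32.6 CPM (29.4–36.04) with vehicle, and 32 (66.7%) at 3.67 CPM (2.51–5.18) with LNP-CRISPR. Dividing cluster 20 held 4.84 CPM (2.77–7.87) with vehicle and 5.67 CPM (3.17–9.35) with LNP-CRISPR, above cluster 0 in the second library, though 12 of its 15 UMIs there were in 1 cell and the intervals overlap. Cluster 0 also held 91.7% and 92.0% of FAP-like Ereg, at 102 CPM (96.6–108) and 52.7 CPM (48.0–57.7). Cluster 4, led by Gdf10, Myoc and Cygb, had 4.08 and 2.88 CPM of Ereg but 288 and 274 CPM of Egfr, above the 211 and 250 CPM of cluster 0. Of the 38 vehicle FAP-like cells with Areg, 19 had Ereg (50%), against 10.9% of those without, and in LNP-CRISPR bulk 7 of 11 (63.6%) did, against 12.6%. Cells with Areg were deeper in both libraries, with medians of 48312 and 40737 UMIs against 28250 and 27409.5. None of these genes was held out of the clustering, so a level by cluster is a description.

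**Figure D2:**
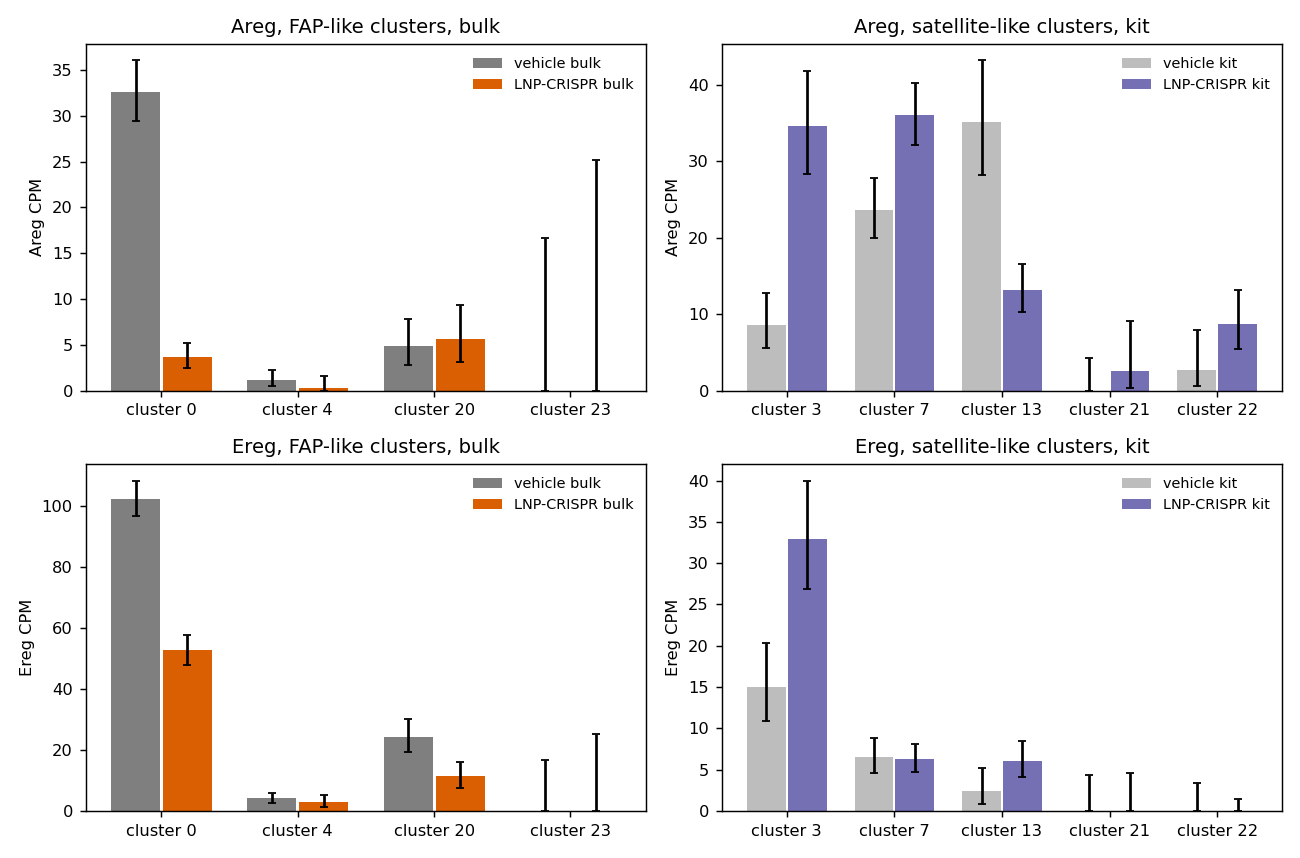
Bars show Areg (top) and Ereg (bottom) CPM from 0 in the FAP-like clusters of bulk (left) and the satellite-like clusters of the kit (right), with exact 95% Poisson intervals as lines. At left, FAP-like cluster 0 is the tallest for Ereg in both libraries and for Areg with vehicle, while cluster 20 is the tallest for Areg with LNP-CRISPR, and at right Areg is higher with LNP-CRISPR in clusters 3 and 7 and lower in cluster 13.

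Satellite-like kit clusters differed too. With vehicle, Areg was highest in cluster 13, led by Esm1, Gal and Myog, at 35.1 CPM (89 UMIs), followed by cluster 7, led by histone genes, at 23.6 CPM (146 UMIs), and by cluster 3, which carries the stem cell genes Pax7 and Myf5, at 8.61 CPM (24 UMIs). In cluster 13, 1 cell held 38 of the 89 UMIs, and without the highest cell of each cluster the vehicle levels were 20.6 CPM in cluster 13, 20.3 CPM in cluster 7 and 5.06 CPM in cluster 3. An Areg UMI was in 47.4% and 52.3% of cluster 7 cells. With LNP-CRISPR the order was cluster 7 at 36.02 CPM, cluster 3 at 34.6 CPM and cluster 13 at 13.1 CPM. The differentiating clusters 21 (Myog, Mymk) and 22 (Myh3, Myh8) stayed under 9 CPM in both. Ereg and Egfr were highest in the Pax7 cluster 3 in both libraries, at 15.1 and 33.0 CPM (Ereg) and 144 and 144 CPM (Egfr). Areg was found in the deeper cells, with medians of 59948 and 61916 UMIs against 14510 and 20175 in satellite-like cells without it. Ereg was in 21.5% and 25.2% of those with Areg, against 4.74% and 7.34%.

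The treatment labels ask how the cells differ after LNP-CRISPR. Ratios are LNP-CRISPR over vehicle CPM with an exact conditional binomial 95% interval, for classes with at least 50 cells in both libraries and genes with at least 30 UMIs in both together. In bulk 9 of 20 pairs of gene and class were measured. In FAP-like cells the 3 measured ligands were lower with LNP-CRISPR: Areg with a ratio of 0.176 (0.128–0.238), Ereg 0.568 (0.512–0.630) and Hbegf 0.785 (0.714–0.862). The receptor was nearly equal over the class, with an Egfr ratio of 1.04 (0.993–1.08). By cluster, Egfr was 1.18 (1.12–1.25) in cluster 0, 0.952 (0.880–1.03) in cluster 4 and 0.970 (0.837–1.12) in cluster 20. Of these 4 genes 0 were at least 2-fold higher and 1 at least 2-fold lower, against 1.3% higher and 1.44% lower of all 12969 genes measured. For Areg and Ereg the lower class level was also seen in cluster 0 alone, at 0.113 (0.0759–0.162) and 0.515 (0.462–0.574). Dividing FAP-like cluster 20 (46 and 33 cells, 16 and 15 Areg UMIs) gave 1.17 (0.539–2.53), and 0.426 without the highest cell of each library. The 0.426 rests on fewer than the 30 UMIs set for a ratio. Hbegf was not lower in cluster 0, at 0.986 (0.883–1.10), but was 0.593 (0.456–0.763) in cluster 4 and 0.126 (0.0764–0.198) in cluster 20, and with each FAP-like cell weighing the same its ratio was 1.23. For Ereg the ratio ran from 0.468 to 0.761 over the alternative settings listed below and single clusters. In vehicle bulk 1 FAP-like cell held 188 of the 1313 Ereg UMIs.

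Lists of other genes were read beside these ratios in FAP-like cells. The neutrophil transcripts S100a8 and S100a9 came to 11.2 CPM with vehicle and 102 CPM with LNP-CRISPR, and both were detected in each library. Immediate early genes (8 of 8 detected), which respond to handling, came to 6873 and 6359 CPM, and 5 fibre transcripts to 44.2 and 36.6 CPM. Of 7 prostaglandin and cAMP genes all were detected, and their sum was 1197 CPM with vehicle and 1575 CPM with LNP-CRISPR. Within that list Ptgs2, the inducible prostaglandin synthase, had a ratio of 1.42, Pde4b 1.69, Crem 0.987 and Nr4a2 0.713. Markers of type 2 innate lymphoid cells summed to 547 and 382 CPM in FAP-like cells, of which Il1rl1 made up 426 and 256 CPM, with Il5 at 0 in vehicle and Il13 at 0 in LNP-CRISPR. The part of each list in the Areg difference was not tested.

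In macrophage or monocyte-like cells both measured ligands were higher with LNP-CRISPR, Areg with a ratio of 1.67 (1.07–2.64) and Hbegf with 1.80 (1.25–2.63). The Areg value rests on 1 LNP-CRISPR cell with 43 of the 55 UMIs, which carried 531 UMIs of the myeloid gene Lyz2, 277 of the antigen presentation gene H2-Ab1 and 0 of the macrophage gene C1qa. Without the highest cell of each library the ratio was 0.777, and where that cell was grouped with dendritic-like cells it was 0.375 to 0.381. Hbegf was 1.11 with equal weight per cell. None of the 2 genes was past 2-fold, against 1.02% of 8639 genes at least 2-fold higher and 1.48% lower.

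In tenocyte-like bulk cells Ereg was higher with LNP-CRISPR, at a ratio of 4.98 (2.91–9.08), and 11 of 109 cells had it against 3 of 81. Without the highest cell of each library the ratio was 2.11. Hbegf was near 1, at 1.07 (0.983–1.16), and Egfr was 1.19 (1.06–1.33). Thus 1 of 3 measured genes was at least 2-fold higher and 0 lower, against 1.65% and 1.6% of 8743 genes.

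**Figure D3:**
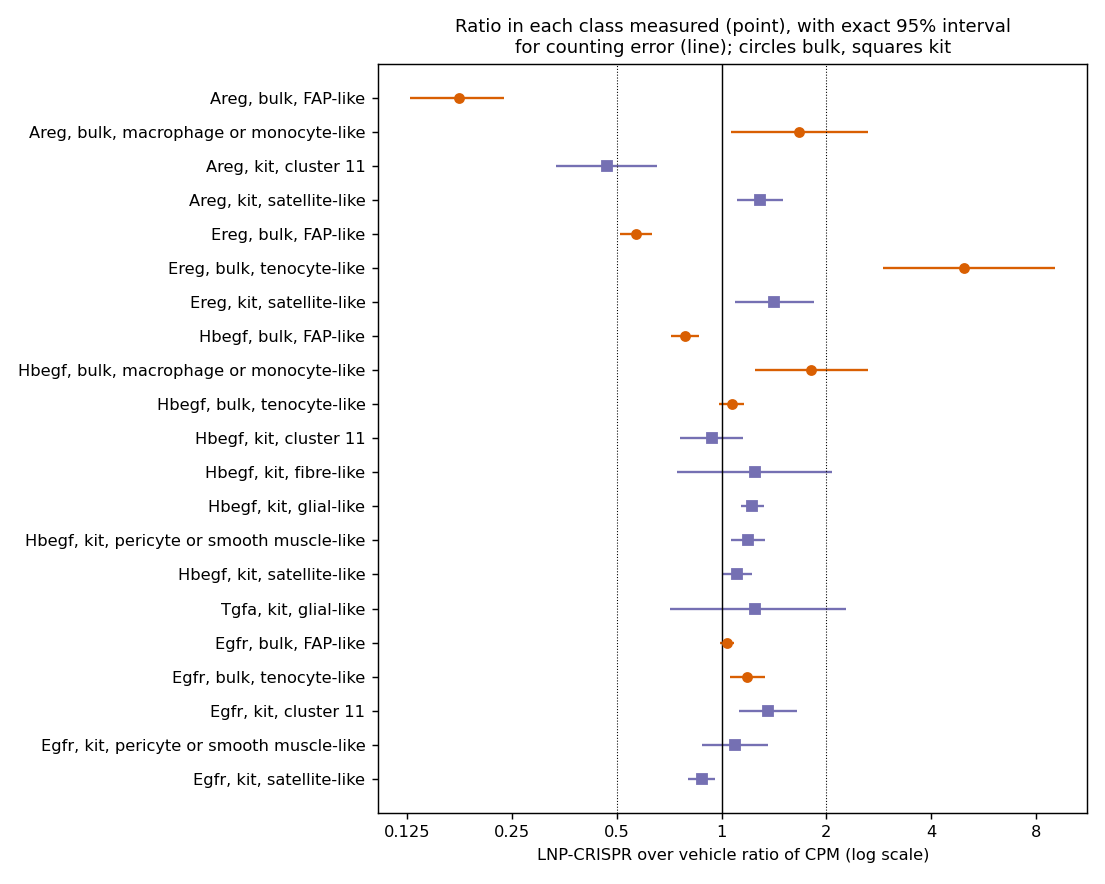
Points show the LNP-CRISPR over vehicle ratio of CPM on a log axis for each of the 21 measured pairs of gene and class, circles for bulk and squares for kit, and lines show exact 95% intervals for counting error. Dotted lines mark 0.5 and 2. Areg in FAP-like cells and in cluster 11 lies below 0.5, and Ereg in tenocyte-like cells lies above 2.

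In the kit 12 of 30 pairs were measured, and most lay nearer to 1. Satellite-like cells had ratios of 1.29 (1.11–1.503) for Areg, 1.41 (1.09–1.84) for Ereg, 1.11 (1.003–1.22) for Hbegf and 0.876 (0.799–0.959) for Egfr. None was past 2-fold, against 0.778% of 12343 genes at least 2-fold higher and 1.25% lower. The Areg class value joins clusters that went opposite ways: 4.02 (2.56–6.54) in the Pax7 cluster 3, 1.52 (1.25–1.87) in cluster 7 and 0.374 (0.271–0.517) in the Myog cluster 13. Without the highest cell of each library these were 5.59, 1.58 and 0.515. Ereg was 2.19 (1.52–3.21) in cluster 3, 0.968 (0.633–1.49) in cluster 7 and 2.55 (1.05–7.43) in cluster 13, whereas Hbegf was 0.816 (0.675–0.987) in cluster 3 and 1.54 (1.21–1.99) in cluster 13. The lower Egfr class value was not seen in cluster 3, at 1.004 (0.876–1.15), or cluster 7, at 1.13 (0.962–1.33). Egfr was 0.685 (0.556–0.846) in cluster 13 and 0.831 (0.383–1.91) in cluster 22. Cluster 3 had 231 and 224 cells and cluster 13 had 53 and 97. Naming cells by their own marker score gave class ratios of 0.976 for Areg and 1.02 for Egfr, and equal weight per cell gave 0.944 for Hbegf. Immediate early genes summed to 3285 CPM in vehicle and 2247 CPM in LNP-CRISPR satellite-like cells, and their part in the ratios was not tested.

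In dividing cluster 11 Areg was lower with LNP-CRISPR, at a ratio of 0.470 (0.335–0.650), with UMIs in 32 of 82 and 22 of 89 cells. Without the highest cell of each library it was 0.535, and with equal weight per cell 0.558, which is no longer past 2-fold. Hbegf was 0.938 (0.761–1.15) and Egfr 1.36 (1.12–1.64). So 0 of 3 genes were at least 2-fold higher and 1 lower, against 1.24% and 1.14% of 9997 genes. The median depth of this cluster was 76951.5 UMIs with vehicle and 53654 with LNP-CRISPR.

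Glial-like cells had ratios of 1.22 (1.13–1.32) for Hbegf and 1.24 (0.710–2.27) for Tgfa, the second with an interval that holds 1. Pericyte or smooth muscle-like cells had 1.19 (1.06–1.33) for Hbegf and 1.09 (0.878–1.36) for Egfr, and fibre-like cells 1.25 (0.743–2.08) for Hbegf, which was 0.799 under the stricter cell filter and 0.875 with cells named by marker score. None of these was past 2-fold. Of all genes measured, 1.81% were at least 2-fold higher and 0.599% lower in glial-like cells, 1.48% and 1.73% in pericyte or smooth muscle-like cells, and 7.16% and 0.719% in fibre-like cells.

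The wider ERBB list of 43 genes (11 ligands, 4 receptors, 4 ligand release genes, 11 feedback and turnover genes, 4 adaptors and 9 response genes) was then read in the same classes. In FAP-like cells 36 were measured, with 0 at least 2-fold higher and 1, Areg, lower, against 1.3% and 1.44% of all genes. The median log2 ratio was -0.01, against -0.05 over all genes. The 6 measured ligands had a median of -0.67: betacellulin (Btc, 53 and 19 UMIs) was at 0.536 (0.300–0.920), whereas neuregulin 1 (Nrg1), a ligand of Erbb3 and Erbb4, was at 1.56 (1.11–2.20). The co-receptor Erbb2, which has no ligand of its own, was at 0.696 (0.533–0.902), and the 4 release genes had a median of -0.01. Feedback genes had a median of 0.05 and response genes of 0.01.

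**Figure D4:**
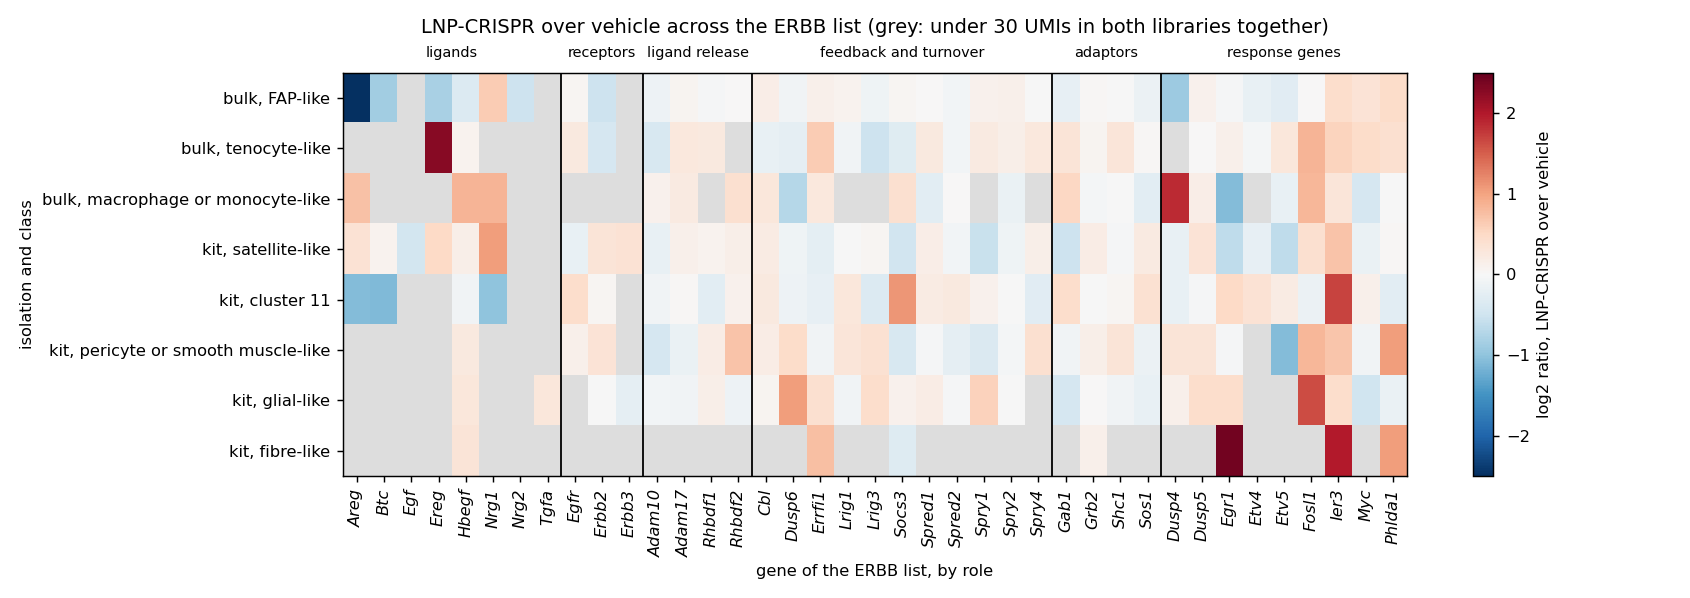
Colour shows the log2 ratio, LNP-CRISPR over vehicle, of each gene of the ERBB list (columns, by role) in each isolation and class (rows), with grey for genes under 30 UMIs in both libraries together. Areg in FAP-like cells is the deepest blue among ligands, and Ereg in tenocyte-like cells the deepest red among them.

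The other classes held between 1 and 5 genes of the list past 2-fold. In dendritic-like cells, where no member was measured, 15 were, with Errfi1, an inhibitor of Egfr, at 2.08 (1.67–2.59), Ier3 at 2.31 (1.93–2.77) and Phlda1 at 2.20 (1.59–3.07) higher, and the adaptor Shc1 lower at 0.486 (0.235–0.949). Of all genes of that class 2.78% were at least 2-fold higher and 2.57% lower, and the list's median log2 ratio was 0.18 against -0.04. In unnamed kit cluster 6 only 4 were measured, of which Socs3 was lower at 0.463 (0.203–0.997), against 2.11% of all genes higher and 7.85% lower. In macrophage or monocyte-like cells 25 were measured, with Dusp4, a MAP kinase phosphatase, higher at 3.78 (1.77–8.97) and Egr1, an immediate early transcription factor, lower at 0.471 (0.387–0.571). Of all genes of that class 1.02% were at least 2-fold higher and 1.48% lower. Macrophage or monocyte-like Nrg1 was at 35.3 and 63.8 CPM, a ratio of 1.81 (1.41–2.33). In tenocyte-like cells 1 of 30, Ereg, was higher and 0 lower, against 1.65% and 1.6% of all genes. In satellite-like cells Nrg1 was the 1 of 37 past 2-fold, higher at 2.08 (1.48–2.96), against 0.778% of all genes higher and 1.25% lower. In cluster 11, of 34 measured genes 3 were lower, all of them ligands, namely Areg, Btc at 0.453 (0.195–0.971) and Nrg1 at 0.489 (0.283–0.818). The 2 higher genes there were Ier3, at 3.22 (2.72–3.83), and the cytokine feedback gene Socs3, at 2.16 (1.72–2.71). Of all genes of cluster 11, 1.24% were at least 2-fold higher and 1.14% lower.

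In glial-like cells 2 of 29 were higher, the ERK phosphatase Dusp6 at 2.08 (1.42–3.13) and the AP-1 gene Fosl1 at 3.36 (1.31–10.96), and 0 were lower. Of all genes there, 1.81% were at least 2-fold higher and 0.599% lower. The receptors of glial-like cells were Erbb3, at 101 and 86.0 CPM, and Erbb2, at 29.0 CPM in both kit libraries. In pericyte or smooth muscle-like cells Phlda1 was higher at 2.08 (1.81–2.40) and Etv5 lower at 0.475 (0.264–0.861), of 30, against 1.48% of all genes higher and 1.73% lower. In fibre-like cells 3 of 7 were higher, Egr1 at 5.37 (3.83–7.66), Ier3 at 4.02 (2.14–7.99) and Phlda1 at 2.07 (1.12–3.93), in a class where 7.16% of all genes were. The list's median log2 ratios in these classes were 0.17 (macrophage or monocyte-like), 0.19 (tenocyte-like), 0.05 (satellite-like), 0.04 (cluster 11), 0.06 (glial-like), 0.16 (pericyte or smooth muscle-like) and 0.75 (fibre-like), beside -0.03, -0.03, -0.02, -0.01, 0.01, -0.06 and 0.18 over all genes.

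Last, genes were ranked by how closely their level followed each gene over 35 units of class and library, by Spearman correlation among 10808 genes. These values are descriptions, since units share libraries, depth and cells of like type. Nearest to Areg were Ndc80 (0.83), a kinetochore gene, Hist1h1d (0.80), Rpl36a-ps1 (0.79), the replication clamp Pcna (0.78) and Khsrp (0.77). Nearest to Ereg were Nrk (0.84), Fmo1 (0.81), Enc1 (0.80), Ibtk (0.78) and Bmp4 (0.77). Hbegf was nearest to Dnajc18, Limch1, the metallothionein Mt1, Klf9 and Cpeb1 (0.88 to 0.89). Egfr was nearest to Ccn4 (0.92), Tceal9 (0.90), Rbms3 (0.89), the growth factor Tgfb2 (0.89) and the proteoglycan Sdc2 (0.88). Tgfa had too few UMIs to be ranked.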

How the data were processed

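Per the labels, cells from skeletal muscle of DMD-model mice were sequenced with 10x Chromium 3′ chemistry, version 3.1. The authors deposited a count of UMIs for each gene in each of 6512 barcodes, with no normalization. Cell Ranger 7.0.1 and the mm10 build are given per the submitters' processing notes, whereas cellranger 5.0.1 is given per the file headers. Library totals were 33801488 and 25921795 UMIs in bulk and 28597422 and 40666916 UMIs in the kit (vehicle first).

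Barcodes under 200 genes or over 20% mitochondrial UMIs were dropped (101, 165, 272 and 300 per library). Scrublet in scanpy 1.11.5 (rate 0.05) called 5, 3, 7 and 8 doublets, under 0.5% of each library, so the doublet call is taken as not having worked and doublets as still present. The 5651 cells left were brought to 10000 UMIs each and put on a log scale, and 30 components of 2000 variable genes were clustered over all libraries (15 neighbours, Leiden resolution 1.0, seed 1). Of 16 marker lists a cluster took the name with the highest share of enriched markers (log2 fold at least 1, at least 10% of cells), given at least 3 markers, unless its 10 leading genes held more markers of another class, or its depth was under 1/3 of the median of its own libraries with no own marker leading. A class needed 20 cells for a level and 50 in both libraries for a ratio. Where no UMI was found, the limit given is that of 3 counts.

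The members and lists were chosen with earlier results of these data known. Named genes were the 5 members, list genes past 2-fold, the receptors, and the 5 nearest genes to each member with at least 200 UMIs, searched among genes with at least 500 UMIs. Some list genes inside 2-fold and the genes of the T or NK-like cells were added after their values were seen. Clusters compared by number were chosen after the clusters were seen. The ratio step was tested on simulated data with counting noise. Places came from GENCODE M21. Alternatives were doublets kept, a stricter filter (500 genes, 10% mitochondrial UMIs), Leiden resolution 2.0, the list genes left out of clustering, equal weight per cell, the highest cell left out, thinning to 1000 UMIs, names by marker score, and minimums of 10 and 100 UMIs.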

Additional observations from a re-analysis of the deposited data

Results flagged for a closer look

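Some LNP-CRISPR over vehicle ratios lay on opposite sides of 1 between classes or clusters, with intervals that left out 1. For each gene with such a pair, the lowest and highest ratios are listed, first over classes and then over satellite-like clusters. None of these differences was tested. Other pairs met the same rule and are not all listed, such as kit Areg at 1.29 in satellite-like cells and 0.470 in cluster 11. Areg had a ratio of 0.176 in bulk FAP-like cells and 1.67 in bulk macrophage or monocyte-like cells, the second resting on 1 cell. Ereg had 0.568 in bulk FAP-like cells and 4.98 in bulk tenocyte-like cells. Hbegf had 0.785 in bulk FAP-like cells and 1.80 in bulk macrophage or monocyte-like cells. Egfr had 0.876 in kit satellite-like cells, though 1.004 and 1.13 in their clusters 3 and 7, and it had 1.36 in kit cluster 11. Inside the satellite-like class of the kit, Areg had 4.02 in the Pax7 cluster 3 and 0.374 in the Myog cluster 13. There, Hbegf had 0.816 in cluster 3 and 6.84 in the Myog and Mymk cluster 21, the latter from 6 and 38 UMIs in 37 and 34 cells.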

How the results depend on the processing

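The Areg ratio of bulk FAP-like cells stayed between 0.129 and 0.178 under 7 alternatives, with no value when thinned (under 10 UMIs). It was 0.113 in cluster 0 alone and turned to 1.17 in cluster 20 alone, from 16 and 15 UMIs. The Areg ratio of macrophage or monocyte-like cells was 0.381 with doublets kept, 0.375 at resolution 2.0, 0.375 without list genes in the clustering, 1.002 with equal weights, 0.777 without the highest cell and 0.370 by marker score. The first 3 and the last differ in where 1 cell with 43 UMIs was grouped. The Areg ratio of satellite-like kit cells was 1.90 with equal weights, 1.08 thinned, 0.976 by marker score, and 4.02, 1.52 and 0.374 in clusters 3, 7 and 13 alone; the cause was not tested. Members past 2-fold in bulk, 2 in all, were 0 when thinned and 4 with at least 10 UMIs. In the kit, 1 in all, they were 0 with equal weights, without the highest cell, thinned or by marker score, and 5 with at least 10 UMIs. Cluster 11 has no value by marker score.

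The class highest for a gene kept rank 1 except in these cases. For Areg, T or NK-like cells ranked 5 at resolution 2.0 and without list genes in the clustering in both bulk libraries, and 3 by marker score in vehicle bulk, and satellite-like cells ranked 2 by marker score in LNP-CRISPR kit. For Ereg, tenocyte-like cells ranked 2 in LNP-CRISPR bulk (equal weights, without the highest cell, marker score) and in LNP-CRISPR kit (equal weights, without the highest cell), and satellite-like cells 3 in vehicle kit by marker score. Glial-like cells ranked 2 for Hbegf in LNP-CRISPR bulk (equal weights, without the highest cell, thinned) and 2 for Tgfa in vehicle kit (thinned). Tenocyte-like cells ranked 2 for Egfr in LNP-CRISPR bulk by marker score. No paired analysis was possible because each group has 1 library.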
